A study of Mus musculus with 182 samples.

Results

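The transcription factor p53, encoded by Trp53, and 7 of its best-known target genes were followed through mouse preimplantation development. The members, chosen by name, were Trp53, Mdm2, Cdkn1a, Ccng1, Bax, Phlda3, Trp53inp1 and Zmat3, and all 8 were found among the 24499 genes of the count table and among the 15253 genes with allelic values. The study sequenced polyadenylated RNA of 182 single cells, comprising 7 unfertilised oocytes, 106 wild-type blastomeres and 69 blastomeres labelled mutant. Matings were natural and embryos were not cultured. BC embryos had a C57BL/6J (B6) mother and a Cast/EiJ (Cast) father, and CB embryos the reverse. Of the oocytes, 4 were B6 and 3 were Cast. Wild-type cells (Xist wt/wt) came from both sexes at the 2-, 4-, 8-, 16-, 32- and 64-cell stages, written 2C to 64C. The label mutant (Xist wt/ko) stands for a deletion of the paternal allele of Xist, the non-coding RNA that silences the X chromosome in cis. All cells labelled mutant were CB, with 7, 12, 16 and 25 females at 8C, 16C, 32C and 64C, and 4 and 5 males at 32C and 64C. A male inherits no paternal X chromosome and so cannot carry this deletion. The labels nevertheless give the mutant males the same genotype as the females. The labels do not say which cells shared an embryo, so p-values measure the spread between group sums.

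p53 is kept at a low protein level by the ubiquitin ligase Mdm2, which is itself a p53 target, so that the pair forms a negative feedback loop. After DNA damage or other stress p53 is stabilised and switches on genes that stop the cell cycle, such as Cdkn1a and Ccng1, and genes that promote or restrain cell death, such as Bax, Trp53inp1 and Phlda3. Early embryos start with RNA stored by the oocyte, much of which is removed around the time the embryonic genome becomes active, in mice mainly at the 2-cell stage. The values below are RNA levels and carry no information on p53 protein or its activity.

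The 8 genes lie on 7 chromosomes of mm10 (GRCm38.p6 coordinates from RefSeq). Trp53 spans chr11:69580348-69591873 and Ccng1 chr11:40748552-40755309. Mdm2 lies at chr10:117688875-117710758 and Cdkn1a at chr17:29090979-29100722. Bax lies at chr7:45461695-45466903 and Phlda3 at chr1:135766085-135769134. Trp53inp1 lies at chr4:11156441-11174379 and Zmat3 at chr3:32334792-32365665. Zmat3 shares 177 bases with the long non-coding RNA gene 4930429B21Rik, and strand use in the counting is not given in the sources used here, so reads in that stretch cannot be told apart.

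RefSeq windows from 250 bases before to 50 bases after a gene start were searched on both strands for the p53 response element, a pair of adjoining 10-base elements, with no spacer and at most 1 mismatch. Windows were found for 6 of the 8 members, with 2 windows for Cdkn1a. Only the upstream one of these Cdkn1a windows held a match, from position -51 to -32 relative to the gene start in that window. It lies at chr17:29090925-29090950 on the plus strand and is shown as the only such match among the members' windows (matched bases in capitals).
Cdkn1a upstream: cagGAACATGTCTTGACATGTTCagc
Of 32851 such windows, 18 held an element of this kind (0.0548%). The simpler pattern CATGNNNNNNCATG, which overlaps the element, was in 234 windows (0.712%). Such a match describes letters only, and no binding was measured.

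Depth ranged from 2538818 to 40049961 counted reads per cell, with a median of 8780554. Cells of one stage, cross, sex and genotype were summed into 31 groups of 1 to 25 cells, 4 of them of 1 cell, and levels are given as CPM, a gene's reads scaled to the total counted reads. SDs are over group sums, of which there were 2 for oocytes, 3 at 4C and 4 at every other wild-type stage. Oocyte markers such as Gdf9 and Zp3 summed to 14500 CPM or more in every oocyte, while markers of cumulus cells, which surround it, summed to between 18.05 and 91.4 CPM there. Of these 8 markers Amh, Foxl2, Inha and Ptx3 were at 0 in the oocytes, Fshr and Has2 reached 1.33 and 4.37 CPM, Cyp19a1 ran from 8.27 to 71.6 CPM and Kitl from 1.60 to 37.8 CPM; Has2, with no reads at 2C, passed the threshold as lower there than in oocytes (edgeR, adjusted p = 0.0311), and the part of these cells in the oocyte values was not tested. Xist was at most 8.51 CPM in every mutant cell other than 8C cells 7 and 9, which held 21.2 and 80.6 CPM and go against their label. One 2C female has a title that gives CB and a strain label that gives BC, and it forms a group alone.

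**Figure D1:**
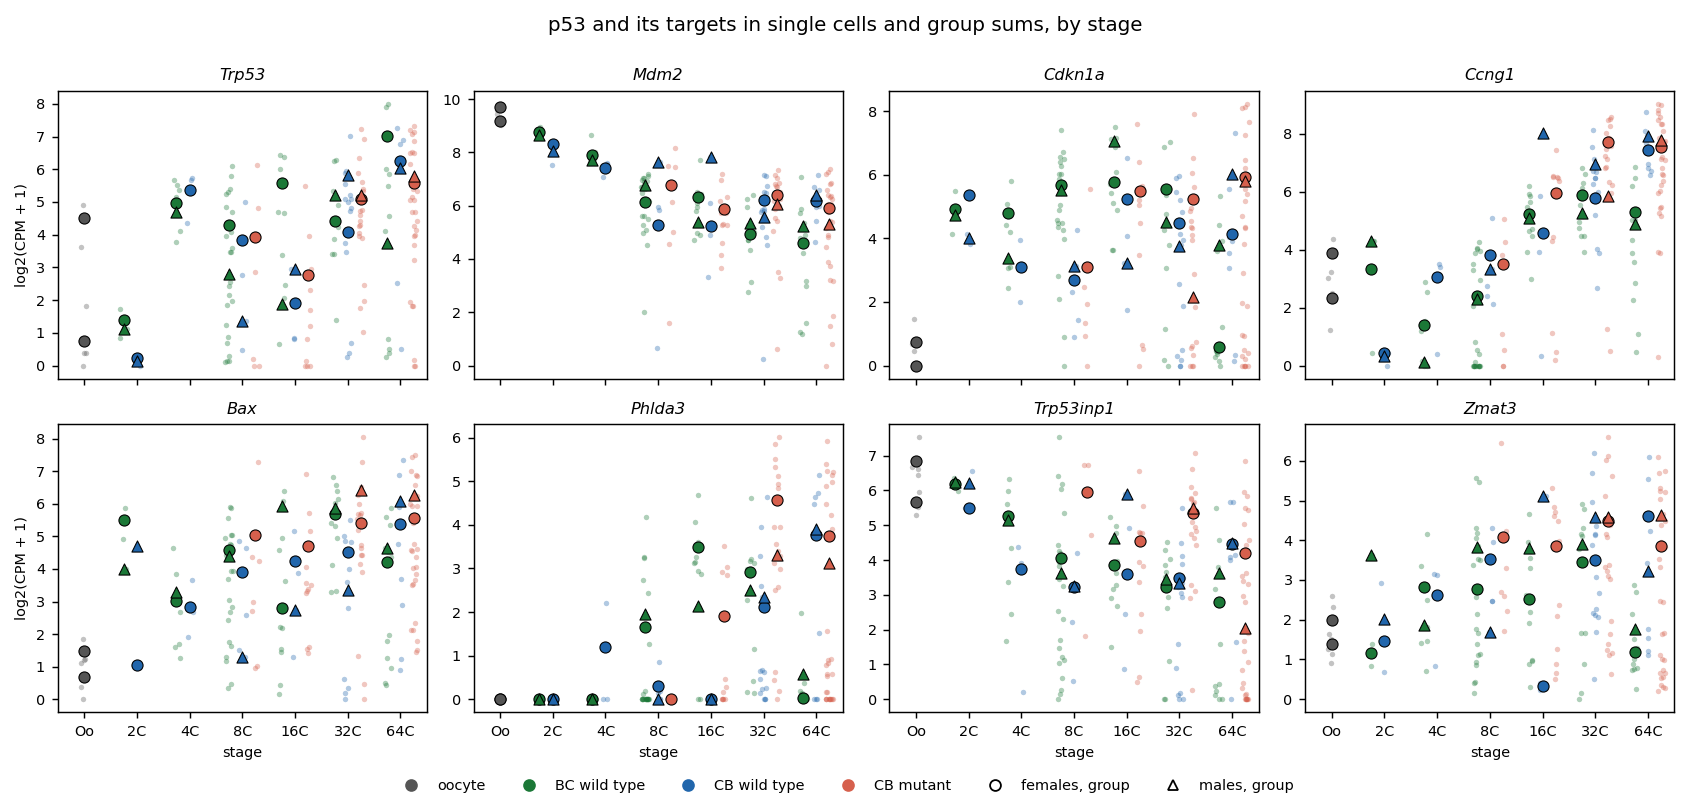
Level of each of the 8 genes by stage, as log2(CPM + 1). Small points are cells and large symbols group sums (circles females, triangles males), coloured by oocyte, BC wild type, CB wild type and CB mutant; Mdm2 and Trp53inp1 are highest in oocytes, Trp53 is near 0 at 2C, and Ccng1 is low until 8C.

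The mean CPM of Trp53 was lowest at 2C and rose at 4C. On the authors' signal the 2C mean (7.87) was not below that of 8C (7.79), and the B6 oocytes, at 0.681 CPM, lay below the 2C mean CPM. The counts of the 4 B6 oocytes were 0, 0.291, 0.308 and 2.52 CPM, and those of the 3 Cast oocytes 11.4, 21 and 29.3 CPM. The strains did not overlap, with 9 reads in all B6 oocytes and 232 in the Cast oocytes. Mdm2, Ccng1 and Trp53inp1 also separated the oocytes by strain, with B6 higher. The strains were not tested, and the share of all genes that separate in this way is not given here. At 2C the 6 cells held 0, 0.176, 0.219, 0.800, 1.18 and 2.31 CPM, and at 4C the 10 cells ranged from 12.8 to 52.5 CPM with a median of 37.1 CPM. Every 4C cell therefore lay above every 2C cell. The mean over groups was 11.4 ± 15.1 CPM in oocytes and 0.762 ± 0.747 at 2C. The 4C mean of 31.8 ± 7.47 CPM was followed by 9.88 ± 7.63 CPM in 8C groups and by 14.8 ± 21.6, 32.2 ± 18.2 and 70.4 ± 47.8 CPM in those of the 3 later stages. From 8C on, each stage differed from the next by less than the SD of at least one of them.

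Trp53 fell by 5.17 on the log2 scale from oocyte to 2C, with an SE of 1.26 (edgeR's quasi-likelihood test with Benjamini-Hochberg adjustment over 16622 genes, adjusted p = 0.00308). It rose by 5.73 from 2C to 4C, with an SE of 1.24 (edgeR, adjusted p = 0.00386). The fall rests on the Cast oocytes: without them it was -1.22 (adjusted p = 0.628). The rise passed the threshold in all 25 fits that left out 1 group. Consecutive steps share the 2C groups, so a low 2C level enters both. On the authors' length-normalised signal, limma put the fall at -1.37 (adjusted p = 0.356) and the rise at 2.29 (adjusted p = 0.0948), neither past the threshold. In 3 of the 6 2C cells, the BC cells, that signal was 13, 15.4 and 19.9 although 7, 4 and 13 reads were counted. The other 3, titled CB, were at 0, 0.415 and 0.840, so the 2C mean of the signal mixes unlike crosses. The signal per CPM of Trp53 had a median of 2.21 in the 3 oocytes with at least 20 reads and of 0.567 to 0.628 at 4C and later. The deposited measures thus disagree for this gene before 4C. Single later cells departed too, with up to 2.72 at 16C and 1.98 at 32C. Other members also moved: the Mdm2 median was 0.603 in oocytes and 0.375 to 0.441 from 4C on. That of Trp53inp1 was 0.206 at 2C and 0.422 at 32C. The cause was not tested.

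Mdm2, the ligase that marks p53 for destruction, was the most abundant member in oocytes and its group means ran downward through cleavage. The B6 oocytes held 769, 822, 834 and 906.5 CPM and the Cast oocytes 525, 557 and 701 CPM. The 6 cells at 2C held 184, 316, 323, 377, 404 and 494 CPM, all below every oocyte. The group mean of oocytes was 707 ± 182 CPM and that of 2C 355 ± 76.5 CPM. It was 205 ± 34.65 CPM for 4C and 103 ± 69 CPM for 8C, and 96.1 ± 89.35, 47.6 ± 18.9 and 53.3 ± 28 CPM for 16C, 32C and 64C in turn. In edgeR it fell by 2.45 on the log2 scale from oocyte to 2C, with an SE of 0.659 (adjusted p = 0.00679). No later step passed the threshold on its own. Without the B6 oocytes the change was -1.83 (adjusted p = 0.134), by limma on cell means -1.04 (adjusted p = 0.338), and on the authors' signal -1.11 (adjusted p = 0.218).

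Per unit length, the authors' signal put Mdm2 at 451 ± 149 in oocytes, above Trp53inp1 at 33.2 ± 31.5 and Trp53 at 20.5 ± 24.9, which did not differ beyond their spread. Ccng1 (6.48 ± 2.99), Bax (3.78 ± 1.89), Zmat3 (3.54 ± 0.786) and Cdkn1a (1.42 ± 2.01) followed, and Phlda3 had no signal. At 64C the order was Bax (51.5 ± 35.9), Trp53 (42.6 ± 27.5), Ccng1 (40.65 ± 32.0), Mdm2 (28 ± 17.9), Cdkn1a (14.8 ± 17.3), Phlda3 (7.53 ± 8.32), Trp53inp1 (6.37 ± 3.99) and Zmat3 (1.33 ± 1.25). Each 64C neighbour pair differed by less than the larger of its SDs except Trp53inp1 and Zmat3, which differed by more than the larger SD. By CPM the highest 64C means were those of Ccng1 (121 ± 105), Trp53 (70.4 ± 47.8), Mdm2 (53.3 ± 28) and Bax (37.2 ± 21.9). Bax thus came first only per unit length.

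Cdkn1a, which encodes the cyclin-dependent kinase inhibitor p21, was close to absent from oocytes and present in every 2C cell. The B6 oocytes held 0, 1, 2 and 6 reads and the Cast oocytes none. The 2C cells held 13.2, 16.5, 16.7, 25.7, 40.7 and 44.4 CPM, none overlapping an oocyte, whose highest level was 1.75 CPM. The edgeR rise was 4.77 on the log2 scale with an SE of 1.61 (adjusted p = 0.0286), and on the authors' signal it was 4.05 (adjusted p = 0.00385). Without the Cast oocytes it was 3.96 (adjusted p = 0.190), and the fitted size depends on a group with no reads. Among later stages the mean was highest at 16C, with 57.6 ± 53 CPM, and lowest at 4C, with 14.7 ± 10.8 CPM. The 8C, 32C and 64C means were 27.3 ± 23.95, 25.4 ± 14.5 and 23.7 ± 28.2 CPM, and no later step passed the threshold.

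Ccng1, the p53-induced cyclin G1, stayed low until 8C and was high from 16C. Its means were 8.93 ± 6.86 CPM in oocytes, 7.06 ± 8.72 CPM for 2C, 3.03 ± 3.83 CPM for 4C and 7.64 ± 4.39 CPM for 8C. From 16C they were 88.6 ± 115, 68.9 ± 38.3 and 121 ± 105 CPM. The 4 groups at 8C lay between 3.93 and 13.2 CPM and the 4 at 16C between 22.9 and 261 CPM, so that the group sums did not overlap. Single cells did, with 0 to 33 CPM at 8C and 0.249 to 261 CPM at 16C. The step from 8C to 16C was 3.24 on the log2 scale with an SE of 1.16 and missed the threshold in edgeR (p = 0.00954, adjusted p = 0.157), while DESeq2 called it at 3.10 (adjusted p = 0.0433). The highest 16C group was a single CB male cell at 261 CPM; the other 3 groups held 22.9, 33.2 and 37 CPM.

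Bax, which permeabilises mitochondria during apoptosis, stood at 1.20 ± 0.847 CPM in oocytes and 21.2 ± 18.1 CPM at 2C. The 7 oocytes held at most 2.60 CPM and 5 of the 2C cells between 14.9 and 57.1 CPM, while the sixth, the cell of conflicting labels, held 1.06 CPM. The difference of 2.81 on the log2 scale missed the threshold in edgeR (SE 1.30, adjusted p = 0.107), and passed it at 3.39 without that 2C cell (adjusted p = 0.0488) and at 2.79 by limma on cell means (adjusted p = 0.0470). The mean of 4C groups was 7.32 ± 1.39 CPM, that of 8C groups 14.6 ± 9.49 CPM, and the 3 later stages had 22.6 ± 26, 35 ± 23.2 and 37.2 ± 21.9 CPM.

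Trp53inp1, whose protein promotes p53 activity and autophagy, had its highest means in oocytes (81.3 ± 45.1 CPM) and 2C groups (66.1 ± 14.75 CPM). The 4C mean was 28.3 ± 13.9 CPM and the 8C mean 10.9 ± 3.36 CPM, and later means were 26.9 ± 22.2, 9.41 ± 0.823 and 14.9 ± 7.54 CPM in stage order. The oocyte-to-2C difference of -1.77 narrowly missed the threshold in edgeR (SE 0.691, adjusted p = 0.0582). DESeq2 and edgeR with RLE factors both put it at -2.23 (adjusted p = 0.00158 and 0.0148), past the threshold, as did edgeR with mother's strain and sex as terms at -2.0 (adjusted p = 0.0445); limma on cell means gave -0.21 (adjusted p = 0.906). Phlda3, a repressor of Akt signalling, had no reads in any oocyte or 2C cell and 30 reads in 1 of the 10 4C cells. The 8C groups averaged 1.32 ± 1.42 CPM of it, and those of 16C, 32C and 64C averaged 3.44 ± 4.87, 4.67 ± 1.35 and 6.79 ± 7.58 CPM. Zmat3, a zinc finger RNA-binding protein, stayed between 2.28 ± 0.947 CPM in oocytes and 14.4 ± 6.15 CPM at 32C, and no step of either gene passed the threshold.

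All 8 genes passed the filter on low counts in every comparison. From oocyte to 2C, 1 of 8 members rose and 2 fell, against 13.8% and 13.2% of the 16622 genes tested; the members' median log2 change was -1.16, and that of all genes 0.04. From 2C to 4C 1 rose and none fell, against 6.61% and 2.92%. These backgrounds moved with the scaling: edgeR with RLE factors called 1930 genes higher and 2847 lower from oocyte to 2C and 820 and 578 from 2C to 4C, in place of 2289 and 2191 and of 1098 and 486. With limma on the authors' signal they were 4240 and 2040, and 626 and 2971. In the 4 later steps no member passed, against 0.367%, 0.0963%, 0.193% and 0.0301% of genes higher and 0.0902%, 0.517%, 0.439% and 0.108% lower. An unadjusted p under 0.05 was found for Ccng1 from 8C to 16C and for Trp53inp1 from 16C to 32C, at a log2 change of -1.40 (SE 0.598, p = 0.0273, adjusted p = 0.268 in edgeR's test); DESeq2 called the first of these and no other member.

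Of 86 other pathway genes, 82 were tested. From oocyte to 2C 12 rose and 13 fell, which is 14.6% and 15.9% of them beside 13.8% and 13.2% of all genes. The 24 genes acting upstream of p53 gave 6 in each direction: the checkpoint kinase Chek2 rose by 5.23 on the log2 scale (SE 0.819, adjusted p = 4.03e-05), and the checkpoint kinase Chek1 changed by -5.14 (SE 0.703, adjusted p = 8.80e-06). The p53 inhibitor Mdm4, a relative of Mdm2, changed by -4.00, the p53-directed ligase Rchy1 by -3.97 and the damage-response adaptor Trp53bp1 by -4.18, all past the threshold. Among 13 BCL2 family and caspase genes 2 rose, among them the anti-apoptotic Mcl1 by 4.34, and the anti-apoptotic Bcl2l1 fell. Of 12 death targets Ei24 rose by 3.58 and Perp fell. Among 11 arrest targets Sfn and Sesn2 rose and Psrc1 and Ckap2 fell, among 17 repair and metabolism targets Rrm2b, Ddb2 and Xpc fell, and of 5 CDK inhibitors Cdkn2d rose. Bcl2l1, Perp, these targets and Cdkn2d are named after their values were seen. The pathway genes' median change was 0.26.

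From 2C to 4C, 8 of the 82 pathway genes rose and 4 fell (9.76% and 4.88%, beside 6.61% and 2.92% of all genes), with a median of 0.28 against -0.05 for all genes. Trp53bp1 rose by 2.36 (SE 0.496, adjusted p = 0.00307) and Rpl5, a ribosomal protein that can bind Mdm2, by 2.31 (adjusted p = 0.00366). Siva1, a pro-apoptotic p53 target, changed by -4.19 (adjusted p = 0.000875). Ddb2, a damage-recognition factor, had 1 read over all 2C groups and a mean of 17.6 ± 8.23 CPM at 4C, and Dram1, an autophagy regulator, 3 reads and then 22.65 ± 17.1 CPM; both rises passed the threshold. The CDK inhibitor Cdkn2c went from 7.16 ± 10.3 CPM to 1 read, the p53 relative Trp73 from 7.58 ± 2.65 CPM to 3 reads, and the kinase Plk3 from 21.6 ± 14.6 to 0.482 ± 0.381 CPM. These 3 falls passed the threshold, but Cdkn2c lost its call without either BC group of 4C (adjusted p = 0.0837 and 0.0728), and Trp73 and Plk3 lost theirs without any 1 of the 3 4C groups and without 3 and 4 of the 2C groups in turn (adjusted p up to 0.132 and 0.138). From 4C to 8C Cdkn2c rose to 24.8 ± 41 CPM, a call lost without any 1 of the 4C groups or the 8C CB male (adjusted p from 0.0765 to 0.225). In the same step Sfn, a cell-cycle adaptor of the 14-3-3 family, rose from 31.5 ± 11.4 to 372 ± 219 CPM (log2 change 3.66, SE 0.769, adjusted p = 0.0302). Sfn lost its call without any one of the 3 4C groups or without the BC females of 8C, at adjusted p from 0.0528 to 0.212. In the 3 later steps no pathway gene passed.

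**Figure D2:**
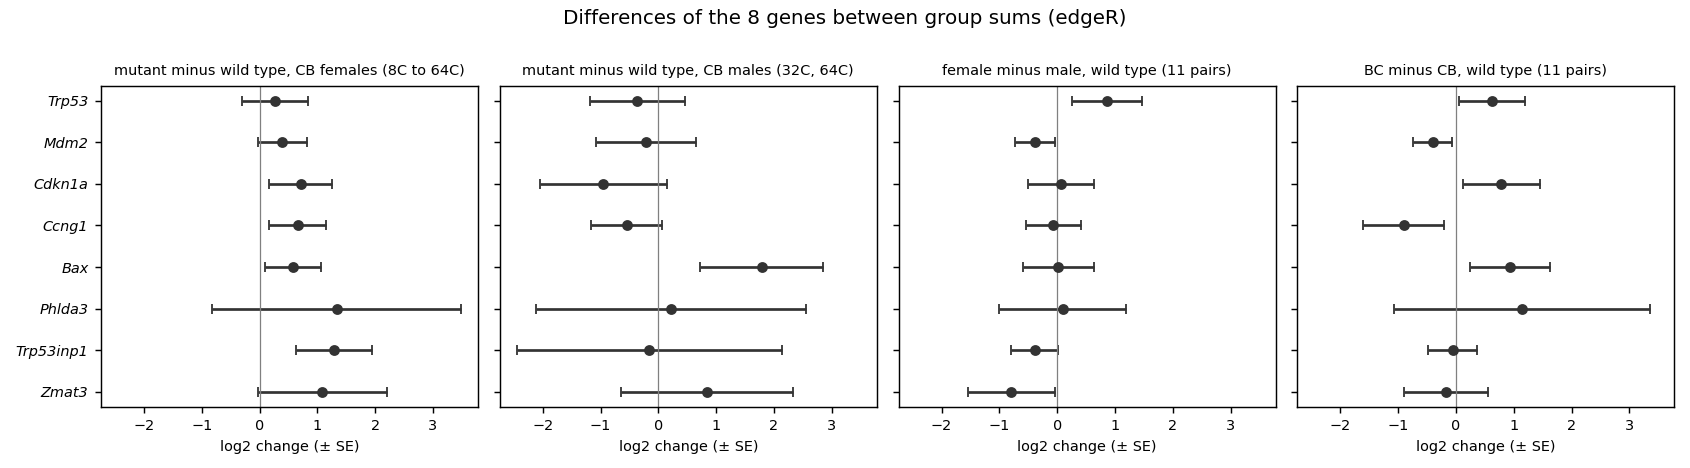
Fitted log2 change of each of the 8 genes (x axis, with bars of 1 SE) in 4 comparisons of group sums: mutant minus wild type in CB females and in CB males, female minus male and BC minus CB in wild type. No point passes the adjusted threshold, and all 8 lie above 0 in mutant females, as do 8023 of the 14304 genes tested.

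Between the sexes, 0 of 8 members differed among 11 wild-type pairs of female and male groups of the same stage and cross, against 0.0369% of 16269 genes higher and 0.0123% lower in females; 809 genes and no member had an unadjusted p under 0.05, and DESeq2 called 77 genes and no member. The largest difference was that of Trp53, at 0.87 on the log2 scale in females over males (SE 0.603, adjusted p = 0.996). Between the crosses, 0 of 8 members differed over 11 pairs of the same stage and sex, against 0.0124% of 16171 genes in either direction; 1835 genes and no member had an unadjusted p under 0.05, and DESeq2 called 789 genes and no member. Bax was nominally 0.94 higher in BC (SE 0.690, adjusted p = 0.617) and Ccng1 0.91 lower, a log2 change of -0.91 (SE 0.703, adjusted p = 0.640).

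At 64C the crosses were not tested on their own. The 64C groups of BC females, BC males, CB females and CB males held 38.1, 29, 174 and 244 CPM of Ccng1. In the same order Phlda3 held 0.0200, 0.482, 12.7 and 14 CPM, Zmat3 1.28, 2.43, 23.4 and 8.40 CPM, and Cdkn1a 0.50, 13, 16.7 and 64.6 CPM. Both BC groups lay below both CB groups for each of these genes, as they did for Bax (17.4 and 24.2 against 40.7 and 66.6 CPM), Mdm2 (23.25 and 36.5 against 70.7 and 82.7 CPM) and Trp53inp1 (5.90 and 11.4 against 20.8 and 21.4 CPM). Trp53 differed in this, with the highest level in BC females, at 129 CPM, the lowest in BC males, at 12.4 CPM, and 75.1 and 64.9 CPM in CB females and males. Other stages did not share this order: at 8C Cdkn1a held 50.7 and 45.05 CPM in BC females and males and 5.45 and 7.85 CPM in CB females and males. Trophectoderm markers, the genes of the outer blastocyst layer such as Cdx2 and Krt8, moved with the 64C difference: their 9 genes summed to a median of 10196 and 10260 CPM per cell in BC females and males and to 429 and 292 CPM in CB females and males. The lowest and highest cells were 238 and 22034 CPM in BC females, 2028 and 18750 in BC males, 98.2 and 10425 in CB females and 260 and 324 in CB males. Their part in the difference was not tested. The share of all genes with both BC groups below both CB groups at 64C is not given here. This order therefore cannot be read as particular to the members.

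Deletion of the paternal Xist allele was compared in CB females over 4 stages. No member passed the threshold, against 0% of 14304 genes (edgeR's quasi-likelihood test, all adjusted p = 1); 512 genes had an unadjusted p under 0.05, 0 of them members, and DESeq2 called 203 genes and no member. All 8 fitted changes were above 0, at 0.27 for Trp53, 0.39 for Mdm2, 0.71 for Cdkn1a, 0.66 for Ccng1, 0.58 for Bax, 1.33 for Phlda3, 1.29 for Trp53inp1 and 1.08 for Zmat3 on the log2 scale. Their median was 0.69, beside 0.12 for all genes and 0.06 for the 76 pathway genes tested. Above 0 were also 8023 of the 14304 genes and 42 of the 76 pathway genes. The members' SEs ran from 0.425 for Mdm2 to 2.15 for Phlda3, and each change was under 2 SE. Without the 16C groups the change of Phlda3 was -0.14, and without those of 8C it was 2.82.

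The member nearest the threshold was Trp53inp1 (SE 0.663, p = 0.0806 in edgeR's test); without the 8C mutant cells 7 and 9 its change was 1.23. At 8C the mutant female group held 60.6 CPM and the wild-type CB females 8.28 CPM. The same pair of groups held 22.5 and 11.2 CPM at 16C, and 40.05 and 10.1 CPM one stage later. For 64C the levels were 17.2 and 20.8 CPM. The mutants were thus higher at 3 of the 4 stages. At 32C the same groups held 209 and 54.5 CPM of Ccng1 and 22.7 and 3.36 CPM of Phlda3, whereas at 64C they held 185 and 174 CPM of Ccng1 and 12.5 and 12.7 CPM of Phlda3. At 32C the trophectoderm markers had a median of 602 CPM (range 147 to 6705) in mutant females and 1828 CPM (range 174 to 3264) in wild-type CB females. At 64C the medians were 359 CPM (range 8.58 to 13755) and 429 CPM. The 8 oocyte markers had medians of 147 CPM in mutant and 111 CPM in wild-type females of 8C. For 16C these medians were 79.4 and 36.7 CPM, for 32C 39.7 and 13.2 CPM, and for 64C 3.87 and 12.4 CPM. The part of either list in these differences was not tested.

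CB males inherit no paternal Xist allele, so their comparison by label, over 32C and 64C only, is not one of the deletion. No member passed in edgeR, against 0% of 11147 genes. Of these, 359 genes had an unadjusted p under 0.05, and DESeq2 called 309 genes and no member. The members' changes ran from -0.95 for Cdkn1a (SE 1.10) to 1.79 for Bax (edgeR, SE 1.07, p = 0.125). Of these, 3 of 8 were above 0, beside 5709 of the 11147 genes tested. Trp53inp1 stood at 43.75 CPM in mutant males and 9.10 CPM in wild-type males at 32C, and at 3.16 and 21.4 CPM at 64C. The genotype difference was not shown to differ between the sexes for any member, against 0% of 13321 genes, of which 624 had an unadjusted p under 0.05 and DESeq2 called 247 genes and no member. The nearest was Ccng1, whose change was 1.56 higher in females than in males (SE 0.758, p = 0.0723, adjusted p = 0.927).

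**Figure D3:**
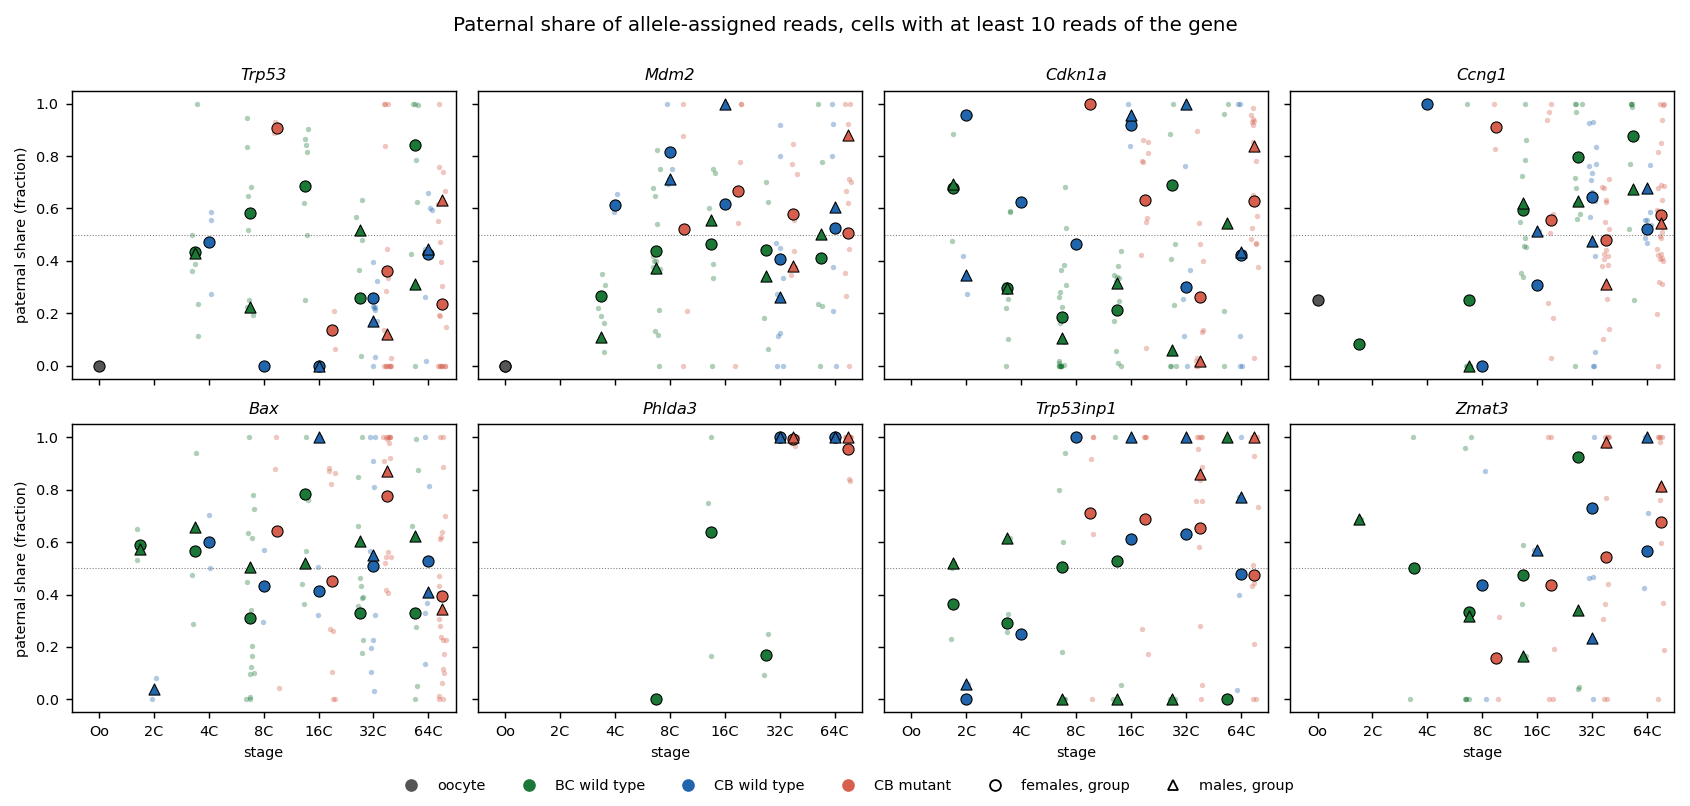
Share of allele-assigned reads from the paternal allele in each cell (small points) and group (large symbols), by stage, in the colours of the plot of levels; the dotted line marks 0.5. Wild-type BC and CB cells lie apart at 2C and 32C for Trp53inp1 and at 16C for Cdkn1a, and overlap or rest on few cells at other stages. Phlda3 sits at or near 1 in CB cells.

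The paternal share of a gene's allele-assigned reads was read from the authors' allelic table in cells with at least 10 reads of the gene. Over autosomal genes the median share of wild-type cells was 0.00737 in oocytes, 0.377 at 2C, 0.429 in 4C cells and between 0.455 and 0.510 afterwards. Cdkn1a RNA at 2C carried paternal reads in all 6 cells, at shares of 0.273, 0.417, 0.475, 0.693, 0.884 and 0.956. The highest is that of the cell of conflicting labels, and would be 0.0443 if its strain label were right and its title wrong. As read by its title, that cell had a mean autosomal share of 0.406, beside 0.282 to 0.428 in the other 5 cells of 2C. Its 6 oocyte markers with a share had 0 to 0.27, and those of the other 5 cells had 0 to 0.568. Bax shares at 2C were 0.532, 0.575 and 0.649 in the BC cells and 0 and 0.0800 in the CB cells that had one. For Mdm2 the 5 BC female 4C cells had shares of 0.188 to 0.349, the 2 BC males 0.0526 and 0.162, and the 3 CB cells 0.586 to 0.657, so the crosses did not overlap. For Trp53 the 4C shares ran from 0.111 to 1 in BC and from 0.273 to 0.586 in CB, and the crosses overlapped.

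Across BC and CB pairs of the same stage and sex from 8C to 64C, 7 of the 8 members had shares in enough pairs to be tested, and none passed the threshold (limma), against 4.34% of 6779 genes higher and 6.59% lower in BC. An unadjusted p under 0.05 was found for 25.4% of genes and for 4 members. Ccng1 had a share 0.186 higher in BC (SE 0.0604, adjusted p = 0.0905, higher in 6 of 7 pairs). Trp53 had one 0.317 higher (SE 0.119, adjusted p = 0.143, 4 of 6 pairs). The share of Trp53inp1 differed by -0.472 (SE 0.169, adjusted p = 0.129, lower in 5 of 6 pairs) and that of Mdm2 by -0.176 (SE 0.0715, adjusted p = 0.157, lower in 6 of 8 pairs). For Cdkn1a the difference was -0.345 (limma, SE 0.177, p = 0.0890, adjusted p = 0.278), lower in 4 of 6 pairs. BC embryos inherit the Cast allele from the father and CB embryos the B6 allele. Without the pair of 64C males the Trp53inp1 difference was -0.612 and passed the threshold (adjusted p = 0.0477).

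Phlda3, too rarely covered for the test, had a paternal share of 1 in all 7 wild-type CB cells with a value. In 20 mutant CB cells it ran from 0.833 to 1, and in 6 BC cells from 0 to 1. The number of allele-assigned reads behind a share is unknown. Between mutant and wild-type CB females the share differed for 0 of 6 members tested, against 0% of 4881 genes (limma, adjusted p from 0.913 to 0.992); 257 genes (5.27%) had an unadjusted p under 0.05, and no member did. Between consecutive stages 3 members could be tested, Cdkn1a, Bax and Trp53inp1, and none passed. From 2C to 4C 0.105% of 4784 genes had a higher share and 0% a lower one; later steps had 0%.

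Within a stage, the members varied widely from cell to cell. Among 30 mutant 64C cells, 26 of 28 member pairs had a Pearson correlation of log2(CPM + 1) above 0, with a median of 0.356. The highest was 0.678 for Cdkn1a and Phlda3. Wild-type 64C cells, 20 in number, were alike, with 26 of 28 pairs above 0 and a median of 0.354. The share over pairs of other genes is not given here. At 8C in wild type, again with both crosses together, the median over 29 cells was -0.0593. These cells share libraries' depth and unknown embryos, and the correlations are descriptions.

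**Figure D4:**
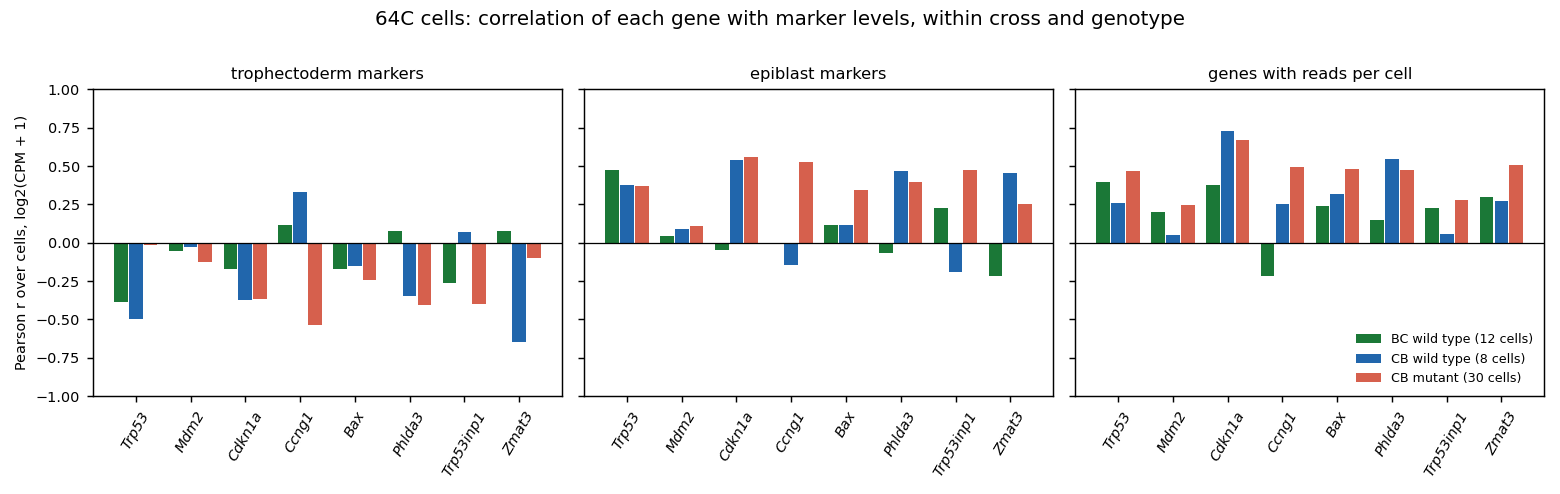
Pearson correlation over 64C cells between each gene's log2(CPM + 1) and the trophectoderm and epiblast marker sums and the number of genes with reads, as bars for BC wild type (12 cells), CB wild type (8 cells) and CB mutant (30 cells). In mutants all 8 genes lie below 0 with trophectoderm (6 of 8 by Spearman) and above 0 with both other measures. The share of all genes with these signs is not given here.

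Against the summed trophectoderm markers at 64C, all 8 members lay below 0 in the 30 mutant cells, from -0.534 to -0.0150, and 6 of 8 by Spearman. In wild type 5 of 8 lay below 0 in the 12 BC cells and 6 of 8 in the 8 CB cells. With the epiblast markers, Nanog and Sox2 among them, all 8 were above 0 in mutants, from 0.110 to 0.557, against 5 and 6 of 8 in wild-type BC and CB cells. The same held in mutants for primitive endoderm markers such as Gata6 and Sox17, from 0.0141 to 0.572. With these markers 5 and 4 of 8 lay below 0 in wild-type BC and CB cells. The number of genes with reads moved with the members, at 0.244 to 0.669 in mutants, and its part was not tested. The share of all genes with these signs is not given here. These counts therefore cannot be read as particular to the members.

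Over all 31 groups and 8112 genes of at least 10 CPM on average, the genes whose log2(CPM + 1) followed a member most closely were found by Pearson correlation. Trp53 was followed by Morf4l1 (0.872) and its near-copies Morf4l1-ps1 and Morf4l1b, which may share reads and are uncertain as separate genes. Mdm2 was followed by Trim61 (0.917), Pde3b and Klhl8, Cdkn1a by Ascc2 (0.750), Smarca4 and Rab11b, and Ccng1 by Cnpy2 (0.852), Shroom3 and Gstp2. Bax was followed by Rnasek (0.855), Ptpmt1 and Mrpl38, and Phlda3 by Cat (0.795), Retsat and Snrnp40. Trp53inp1 was followed by Scoc (0.798), Obox5 and Nus1, and Zmat3 by Dpcd (0.657), B230118H07Rik and Ptgr2. The groups share stage, and several hold few cells.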

How the data were processed

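Cells were sorted into stage, cross, sex and genotype by the submitters' labels, and the deposited tables were analysed without return to the reads. Per the labels' protocols, polyadenylated RNA of single cells was copied into cDNA from the 3′ end, amplified and sequenced in single-end reads of 50 bases. TopHat2 2.1.0, SAMtools, HTSeq 0.6.1 and build mm10 are named in the submitters' processing notes; no source used here gives their settings. Deposited by the authors were raw counts per gene and cell, a depth- and length-normalised signal whose abbreviated name is not spelled out per the file headers, and, per gene and cell, the fraction of allele-assigned reads, read here as paternal because X-linked genes had a median of 0.00649 in 44 male cells. Depth behind that fraction is unknown. The 3′ priming means that counts follow transcript ends.

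Counts were summed per group and tested with edgeR 4.0.16 (quasi-likelihood test, TMM factors, filterByExpr; R 4.3.3), adjusted by Benjamini-Hochberg over all genes tested, with a threshold of 0.05; alternatives used DESeq2 1.42.0 and limma 3.58.1, which also tested shares as means over cells with at least 10 reads. The designs were genotype or sex or cross within pairs of otherwise like groups, and stage steps in 1 fit. Scripts were tested on simulated data. The most alike cells still differed beyond counting noise (chi-square of 16.1 for each degree of freedom), so each cell was kept as its own library. All 8 members are named; of the pathway lists up to 4 genes per comparison and direction are named by smallest p, and per member the 3 genes most like it. The values of 1 pathway gene that this rule names are not reported here. Members and lists were chosen with earlier results of these data known. Promoter windows came from RefSeq (GRCm38.p6).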

Additional observations from a re-analysis of the deposited data

Results flagged for a closer look

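Among wild-type stages with 4 group sums, 39 sets of values (a member at a stage) were examined for a group far from the other 3, and 3 stood apart, where chance gives about 1 in 20. Trp53 at 16C stood at 47.2 CPM in the sum of 8 BC females, while the other 3 groups lay between 2.66 and 6.79 CPM. Ccng1 at 16C stood at 261 CPM in the single CB male cell, above the next group at 37 CPM. Trp53inp1 at 2C stood at 44 CPM in the single cell whose title and strain label disagree, below the next group at 72.4 CPM. That next group is the sum of 2 CB male cells at 44.05 and 92.7 CPM, so the level itself was shared by another 2C cell.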

How the results depend on the processing

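No paired analysis was possible because replicate numbers in the labels only name cells; the designs pair groups by stage, sex or cross, not by number. Among the member and pathway gene values compared, 432 of 458 kept direction and side of the threshold in the alternatives other than leaving out 1 group in turn. Limma on the authors' signal was chosen after seeing the data. Leaving out 1 group, the oocyte-to-2C counts of members ran from 0 to 2 higher and from 1 to 2 lower, and the paternal-share count between the crosses from 0 to 1 lower. From oocyte to 2C limma on cell means called 2 members higher and 0 lower, the fit without the 2C cell of conflicting labels 2 higher, and limma on the authors' signal 0 lower. From 2C to 4C limma on cell means called 1 lower (Trp53inp1, -2.25) and limma on the signal 0 higher. DESeq2 called 1 higher from 8C to 16C and gave Mdm2 no adjusted p in any stage step. On the authors' signal the log2 level at 64C minus that at 2C was 2.85 for Trp53 and -1.19 for Trp53inp1. Limma on cell means turned the sign for mutant males of Cdkn1a (0.0235), Phlda3 (-0.18) and Trp53inp1 (0.22), and for sex by genotype of Cdkn1a (-0.0268). Groups of at least 3 cells turned that of Mdm2 between the sexes (0.0304). The share difference of Bax between the crosses became 0.0182 with at least 50 reads, and ran from -0.119 to 0.0221 without 1 pair. That of mutant females became 0.00187 for Mdm2 and 0.129 for Trp53inp1 as medians over cells; without 1 stage it ran from -0.0873 to 0.0687 and from -0.0910 to 0.0317, and for Cdkn1a from -0.0407 to 0.234. Phlda3 in mutant females ran from -0.14 to 2.82 without 1 stage. None of these sign changes passed the threshold, and the cause was not tested. A further 44 member values are not printed singly, 29 of which changed sign in at least 1 alternative and 0 the side of the threshold.

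With RLE factors the median change of all genes moved from -0.05 to -0.28 from 2C to 4C, from 0.05 to 0.20 from 4C to 8C and from 0.19 to 0.09 between the sexes. Over all genes, edgeR called 1584, 76, 102, 105 and 23 in the steps from 2C on, DESeq2 3019, 1317, 1202, 817 and 528, and limma on cell means 3605, 395, 314, 305 and 112. Groups of at least 3 cells gave 39, 13, 52 and 13 from 4C on. For the last step RLE factors gave 14, no filter 60 and the fit without the 2C cell 13; mother's strain and sex as terms gave 50 from 8C to 16C. Limma on the signal called 3597, 40 and 178 in the first 3 of these steps. Between the sexes edgeR called 8, RLE factors 5, groups of at least 3 cells 3 and limma on cell means 1; between the crosses 2, the last of these 0 and groups of at least 3 cells 1. For mutant males limma on cell means called 4. Splits into higher and lower were 1455 and 1564 by DESeq2 from 2C to 4C. They were 362 and 840 (edgeR 16 and 86) from 8C to 16C, 340 and 477 (32 and 73) from 16C to 32C, 197 and 331 (5 and 18) from 32C to 64C, and 613 and 176 (1 and 1) between the crosses. Limma on the signal gave 24 and 16 (61 and 15) from 4C to 8C, 109 and 69 from 8C to 16C and 14 and 14 from 32C to 64C; RLE factors gave 3 and 2 (6 and 2) between the sexes. No 2C group had 3 cells, so steps at 2C had no value from such groups. Leaving out a stage was not run as a test in males or for sex by genotype, where no residual degrees of freedom would remain. Phlda3 had no reads in oocytes and at 2C, so its change there was not detectable at this depth.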
